A study of Mus musculus with 14 samples.

Results

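Doxorubicin was given to mouse embryo fibroblasts (MEFs) that lack p53, and their messenger RNA was set against that of untreated cells of the same genotype. The libraries were chosen by their labels alone: 4 of the 10 RNA libraries, and of the 14 samples in the series, are labelled p53-/-, as untreated replicates 1 and 2 and doxorubicin replicates 1 and 2. Treated cells had 0.2 ug/ml doxorubicin for 6 h, and all cells were of strain 129/Sv. The 6 wild-type libraries, 3 untreated and 3 given the same dose for the same time, are used here as the reference for the p53-null response. Both p53-null groups carry the same deletion, so no comparison within them measures p53 itself. The labels number the replicates but do not say whether they came from separate embryos or cultures. Some replicates of one group differed in sex-linked RNA. Wild-type replicate 1 had 166 reads of 4 Y-linked genes untreated and 147 treated, where replicates 2 and 3 had 0 to 9. How far the spread behind each p-value is technical is therefore not known. The sources used here do not say which part of the gene is deleted, how old the embryos were or whether untreated cells had a vehicle.

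Doxorubicin is an anthracycline that slides between DNA bases and traps topoisomerase II on cut DNA, which leaves double-strand breaks. The kinases ATM and ATR answer such breaks, and one of their best known substrates is p53, a transcription factor that is stabilised and switches on genes of cell cycle arrest, apoptosis and repair. Cells without p53 keep the kinases, the checkpoint that holds them in G2 and the other pathways that sense DNA damage, among them NF-kB signalling. A drug that blocks topoisomerases can also slow transcription directly, and RNAs that are made and degraded quickly, such as those of the immediate early genes, are the first to show a change in synthesis.

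Levels are given as reads per 1e6 reads (CPM) after scaling between libraries, and each library is one value. Untreated p53-null libraries held 18099499 and 18698205 reads, and the treated ones 25252373 and 25970157, so every treated library was deeper than every untreated one. The wild-type libraries held 9767812 to 11770448. The first principal component of the 4 p53-null libraries carried 59.5% of the variance and placed the untreated libraries at -27.7 and -26.6 and the treated ones at 43.2 and 11.1. Treated replicate 2 stood apart in its sex-linked RNA. It had 15 reads of 4 Y-linked genes and 399 of Xist, the RNA of the inactive X chromosome, where the other 3 p53-null libraries had 136 to 216 and 15 to 29. Results are therefore also given for treated replicate 1 alone, from a fit without treated replicate 2 in which the filter and the scaling were made anew. The labelled cell type was borne out by its markers: all 14 fibroblast markers were tested, with a summed level of 4528 to 5581 CPM in the p53-null libraries. Summed markers of macrophages and blood were at 87.8 to 129 CPM, of muscle at 64.3 to 145, of epithelium at 14.8 to 37.5, of nerve cells at 223 to 261 and of endothelium at 2.62 to 4.37, and Hba-a1 was at 0 in every p53-null library.

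Trp53 itself, the gene of p53, was read in these cells. Its level was 69.6 and 74.2 CPM in the untreated libraries and 29.5 and 44.1 CPM in the treated ones, a log2 fold of -0.99 (SE 0.32) with no overlap between the groups. In wild-type cells without the drug it was at 23.2 ± 2.73 CPM (SD, n = 3), below all 4 p53-null libraries. The method reads the 3′ end of transcripts, so these reads neither check nor contradict the deletion. Its relatives were barely read: Trp63 had 2 and 0 reads untreated and 2 and 0 treated, and Trp73 had 0 and 0 untreated and 1 and 3 treated. Both were below the level at which a gene was tested.

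Without p53, no gene passed the test of the doxorubicin response. Of 11177 genes tested with limma, 0 (0%) had an adjusted p under 0.05, the smallest adjusted p was 0.354, and limma-voom also called 0. Before adjustment 1254 genes (11.2%) had p under 0.05, where 5% would be expected with no change in either direction. Those 1254 were 594 genes with the higher level after treatment (5.31% of all tested) and 660 with the lower (5.9%). In wild-type cells 1406 genes (12.6%) passed in the same fit, 8.03% as higher and 4.55% as lower, and 2600 passed with the replicate number as a block. The p53-null groups hold 2 libraries each, and an exact permutation test of 2 against 2 cannot go below a two-sided p of 0.333. Every p53-null value below is therefore a description of 4 libraries that did not pass, and is given by library.

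A gene is called separated here when both treated libraries lay on one side of both untreated ones. Among all genes tested 2833 (25.3%) were separated and higher, and 3178 (28.4%) separated and lower. With a fold of at least 2 as well, 193 (1.73%) were higher and 472 (4.22%) lower. The larger folds were thus more often downward, while the median log2 fold of all genes was -0.08. That median ran with expression: it was -0.25 for genes with a mean log2 level of 1 to 3, and 0.11 for those at 5 to 7. Beside it, treated libraries were deeper than untreated ones; the part of depth in this was not tested.

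**Figure D1:**
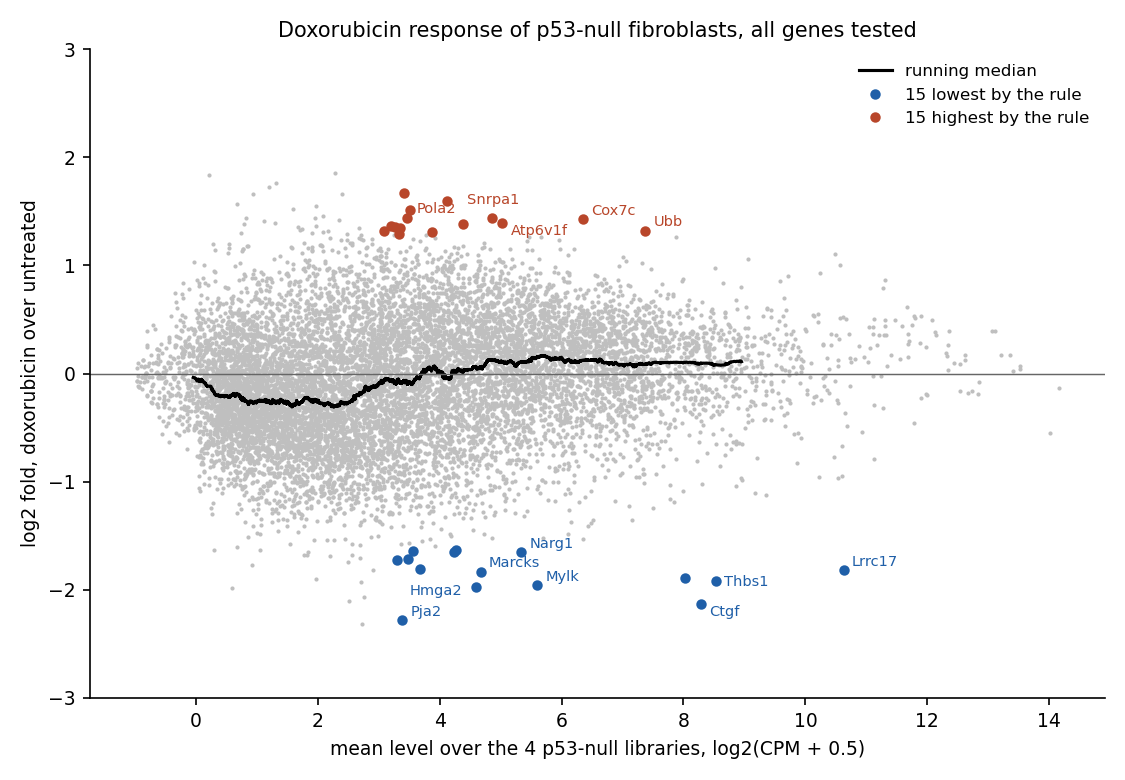
Log2 fold of doxorubicin over untreated in p53-null cells (vertical axis) against the mean level over the 4 p53-null libraries, as log2(CPM + 0.5), for 11177 genes (grey dots), with the running median of 500 genes (black line) and the 15 highest and 15 lowest separated genes at a mean level of 3 or more (red and blue dots, some named). The coloured dots reach from -2.28 to 1.67, and Ctgf, Thbs1 and Lrrc17 lie low at high levels.

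The 15 lowest folds among separated genes with a mean log2 level of 3 or more ran from -2.28 to -1.63. Several encode proteins of the cell surface, matrix and cytoskeleton. Ctgf, a secreted matricellular protein, had 669 and 640.0 CPM in the untreated libraries and 91.997 and 242 CPM in the treated ones, a log2 fold of -2.13 (SE 0.58). Thbs1, thrombospondin 1, had 645 and 799 CPM untreated and 122 and 293 CPM treated (log2 fold -1.92, SE 0.34). In both the treated libraries were well below the untreated ones, and treated replicate 1 was the lower of the pair.

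Others of the 15 act inside the cell. Mylk, the kinase that phosphorylates myosin light chains, had 111 and 81.4 CPM untreated and 24.3 and 24.03 CPM treated (log2 fold -1.96, SE 1.15). Lpp, a protein of focal adhesions, had 32.6 and 33.4 CPM and 9.59 and 10.7 CPM (log2 fold -1.65, SE 0.44), and Marcks, which binds actin at the membrane, 67.1 and 33.7 CPM and 13.8 and 12.2 CPM (log2 fold -1.83, SE 0.40). F2r, the thrombin receptor, and Cyth3, an exchange factor for ARF proteins, had log2 folds of -1.63 (SE 0.40) and -1.81 (SE 0.44). Hmga2, an architectural chromatin protein of embryonic and dividing cells, had 56.97 and 39.8 CPM untreated and 11.3 and 12.3 CPM treated (log2 fold -1.97, SE 0.28). The treated libraries agreed closely for Hmga2 and Lpp. Also among the 15 were Pja2, Lrrc17, Clip2, Npas4, Narg1 and Zfp36l1.

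The 15 highest folds ran from 1.29 to 1.67. Slc16a6, a transporter of the monocarboxylate family, had 9.32 and 9.71 CPM untreated and 28.7 and 30.9 CPM treated (log2 fold 1.60, SE 0.38). Its replicates lay close together on both sides. Txnip, which binds thioredoxin and limits glucose uptake, had 3.99 and 7.51 CPM and 19.1 and 18.1 CPM (log2 fold 1.67, SE 0.66). Pola2, a subunit of the polymerase that primes DNA synthesis, had 10.5 and 14.5 CPM and 28.2 and 38.8 CPM (log2 fold 1.39, SE 0.37). Rbm38, an RNA-binding protein, had 4.03 and 7.38 CPM and 13.1 and 16.8 CPM (log2 fold 1.36, SE 0.44). It is a known p53 target, but is not in the list of p53 targets used below. For 9 of the 15 the untreated libraries themselves differed by over 2-fold, with replicate 1 the lower: the ubiquitin gene Ubb had 65.8 and 166 CPM untreated against 258 and 266 CPM treated, and Cox7c, a subunit of cytochrome oxidase, 29.2 and 82.7 CPM against 115 and 154 CPM. The other 7 of the 9 were Snrpa1, Atp6v1f, Cxx1b, Med10, Nxt1, Igbp1 and Mrps22, and Gm1943 and 1700040I03Rik completed the set.

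**Figure D2:**
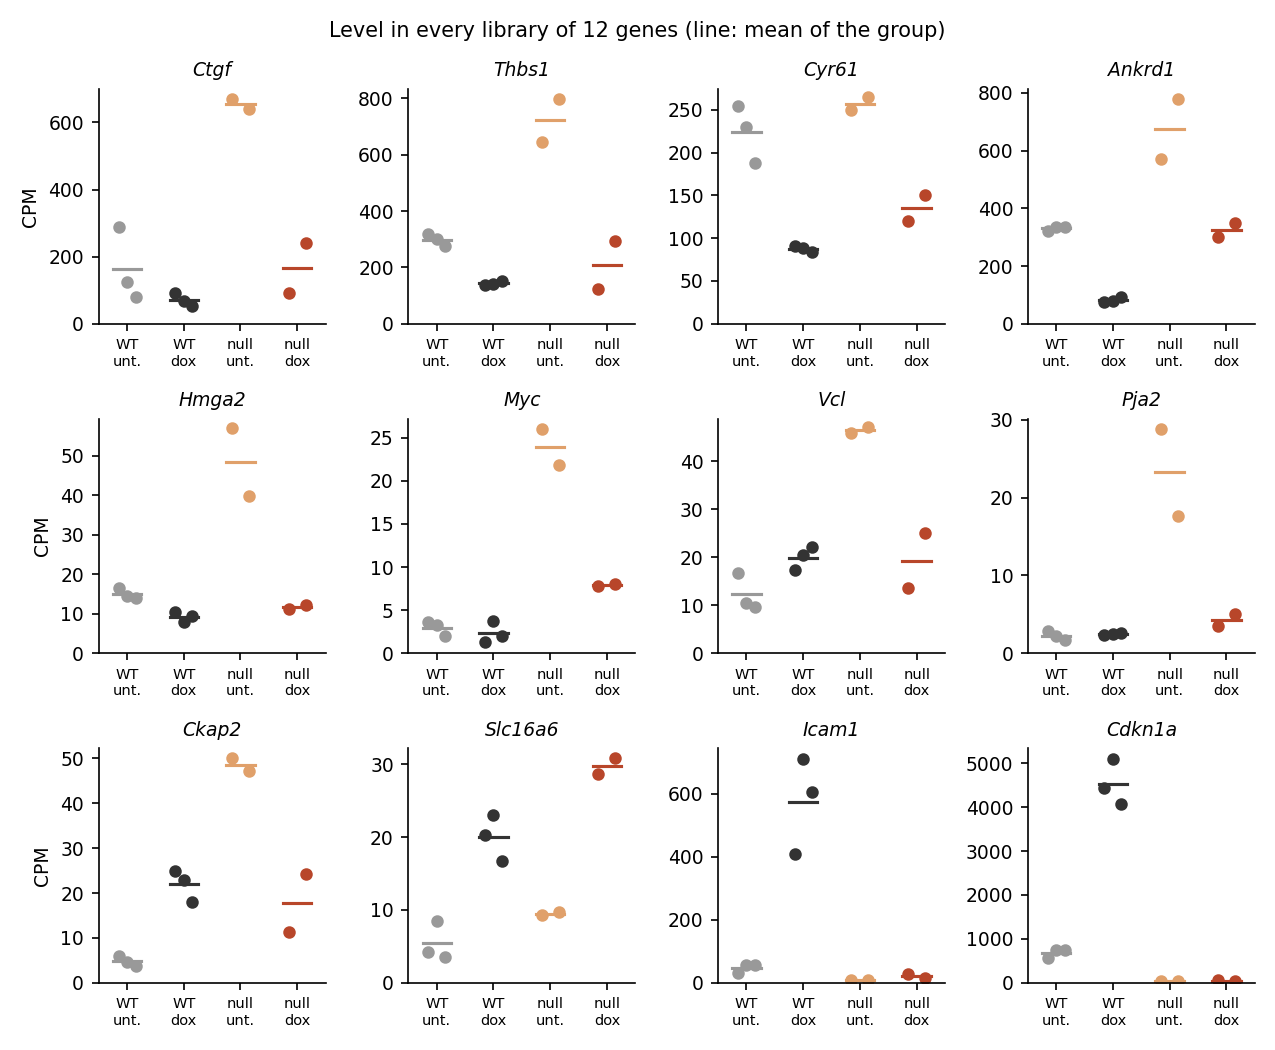
CPM in every library (dots) with the group mean (line) for 12 genes, in wild-type untreated, wild-type treated, p53-null untreated and p53-null treated cells; each panel has its own linear axis from 0. The first 9 genes are lower in both treated p53-null libraries than in both untreated ones, while Slc16a6, Icam1 and Cdkn1a are higher, Icam1 and Cdkn1a at levels far below those of treated wild-type cells.

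For several of these genes the untreated p53-null level was the one that stood out, as the plot of 12 genes by library shows. Choosing genes by a low p53-null fold, the 15 lowest also by a mean log2 level of 3 or more, itself favours a high untreated level. Ctgf had 164 ± 110 CPM in untreated wild-type cells (SD, n = 3), below both untreated p53-null libraries and between the treated ones. Hmga2 had 15.0 ± 1.27 and Myc 2.97 ± 0.832 in untreated wild-type cells, and Pja2, a ubiquitin ligase, 2.23 ± 0.589. Both treated p53-null libraries still had more Myc and Pja2 than that, and less Hmga2. Genotype goes with depth and with culture in these libraries, and their parts in the level of untreated cells cannot be told apart.

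The canonical p53 targets lay close to the background of all genes in p53-null cells. Of 74 tested, 0 passed, 21 (28.4%) were separated and higher and 22 (29.7%) separated and lower, against 25.3% and 28.4% of all genes, and the median log2 fold was 0.01. In wild-type cells 45 of the 74 passed as higher and 2 as lower, against 8.03% and 4.55% of all genes, at a median of 1.32. The difference between the responses passed for 23 members, all with the smaller response in p53-null cells, against 2.34% of all genes. With the replicate block, which also pairs the p53-null libraries by number, the difference passed for 40 members with the smaller response in p53-null cells and 2 with the larger. The p53-null median was 0.03 for 18 apoptosis genes, -0.21 for 11 genes of cell cycle arrest, 0.17 for 7 genes of feedback on p53, 0.03 for 15 genes of metabolism and autophagy and -0.16 for 7 repair genes.

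Cdkn1a, which encodes the CDK inhibitor p21, had 31.5 and 29.3 CPM in untreated p53-null libraries and 53.9 and 44.4 CPM in treated ones, a log2 fold of 0.68 (SE 0.22). Both treated libraries were above both untreated ones, by less than 2-fold. In wild-type cells its log2 fold was 2.73, and the difference between genotypes passed (-2.05, SE 0.29, adjusted p = 0.00707 by limma). Mdm2, the ubiquitin ligase that degrades p53, had 51.2 and 47.99 CPM and 63.8 and 48.7 CPM (log2 fold 0.17, SE 0.31), and the cyclin gene Ccng1 3.03 and 2.59 CPM and 3.15 and 1.98 CPM (log2 fold -0.13, SE 0.34). Their p53-null groups overlapped. Of the apoptosis genes, Bbc3, encoding PUMA, had 4.899 and 3.65 CPM and 2.84 and 2.799 CPM (log2 fold -0.51, SE 0.34), and was separated and lower. Bax had 51.8 and 30.6 CPM and 41.4 and 34.3 CPM (log2 fold -0.08, SE 0.37), and Pmaip1, encoding NOXA, 0.240 and 0.220 CPM and 0.227 and 0.283 CPM (log2 fold 0.05, SE 0.28). Neither was separated, and in wild type both rose, by 1.14 and 2.90.

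Members that did lie apart in p53-null cells went both ways. Icam1, an adhesion molecule that NF-kB also controls, had 9.41 and 7.21 CPM untreated and 26.2 and 16.5 CPM treated (log2 fold 1.29, SE 0.38), against a wild-type fold of 3.61. Ppm1d, the phosphatase WIP1 that switches off ATM signalling, had 8.65 and 9.01 CPM and 17.1 and 15.7 CPM (log2 fold 0.86, SE 0.34). Ckap2, a spindle protein, went the other way, with 50.001 and 47.2 CPM untreated and 11.3 and 24.3 CPM treated (log2 fold -1.52, SE 0.38), where wild-type cells rose (2.10).

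**Figure D3:**
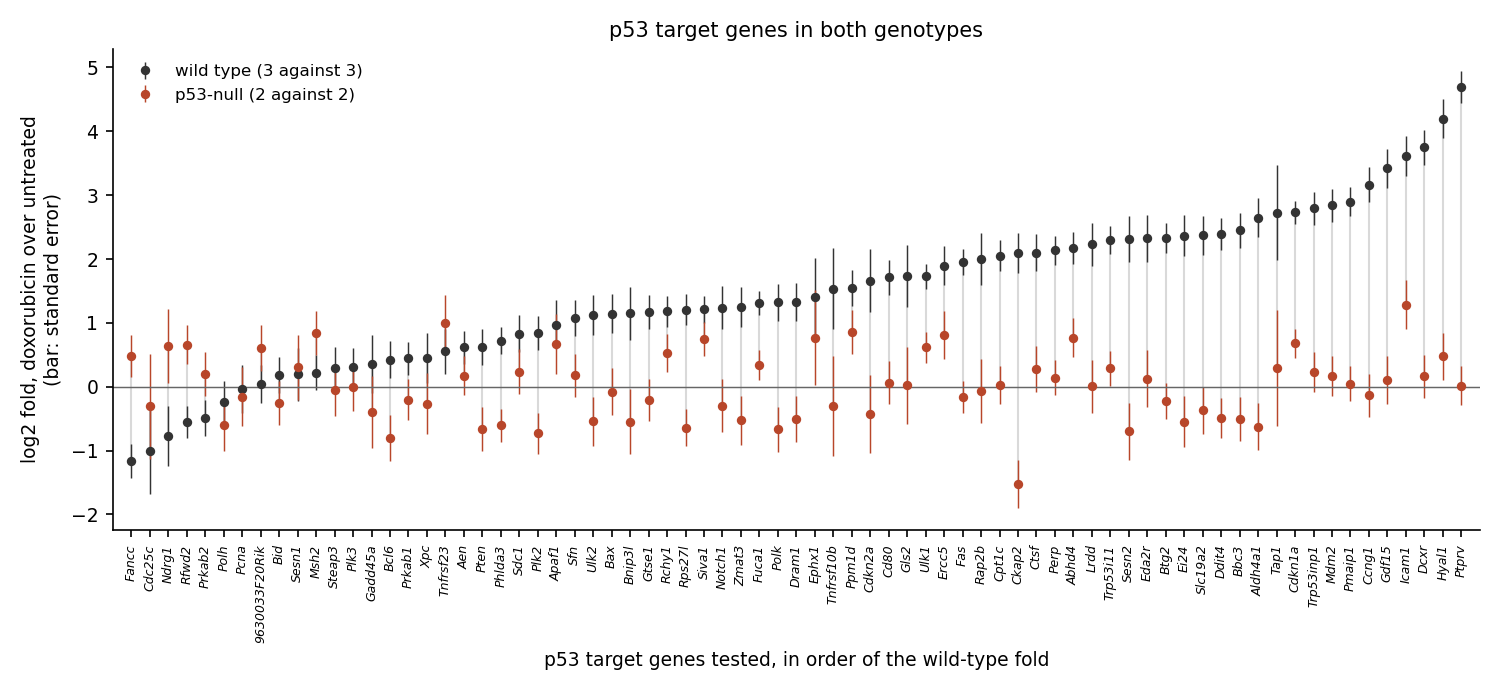
Log2 fold of doxorubicin over untreated (vertical axis, bar: standard error) for 73 of the 74 p53 targets tested, ordered by the wild-type fold, in wild-type (black, 3 libraries against 3) and p53-null cells (red, 2 against 2). The median over all 74 is 1.32 in wild type, whereas it is 0.01 in p53-null cells, where Icam1 is the highest shown and Ckap2 the lowest shown.

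Genes that passed as higher in wild type lay on both sides in p53-null cells. Of those 897 genes, at a wild-type median of 1.41, the p53-null median was 0.05; 291 (32.4%) were separated and higher without p53 and 206 (23%) separated and lower, against 25.3% and 28.4% of all genes. Of them 35 were separated and at least 2-fold higher in p53-null cells. They include Slc16a6 (1.88 in wild type), Rbm38 (2.96), Icam1 and Cited4, a co-regulator that binds CBP and p300. Cited4 had 0.624 and 0.923 CPM in untreated p53-null libraries and 3.904 and 3.46 CPM in treated ones (log2 fold 1.72, SE 0.34), while wild-type cells went from 1.07 ± 0.442 to 104 ± 13.2 CPM (SD, n = 3).

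Immediate early genes, which growth factors and stress switch on within minutes, stood mostly lower in treated p53-null cells. Of 70 listed and 67 tested, 39 (58.2%) were separated and lower and 5 (7.5%) separated and higher, against 28.4% and 25.3% of all genes. The median log2 fold was -0.43. With treated replicate 1 alone the median was -0.59, and with 1 library left out it ran from -0.59 to -0.34. The wild-type median was 0.25, with 8 members passed as higher and 6 as lower, or 18 and 8 with the replicate block. Without the block 8.03% and 4.55% of all genes so passed. Many such genes are known to be driven by SRF, which binds the CArG box, and by CREB and ATF factors, which bind the CRE. The sequences below are the windows from 250 bases before to 50 after the RefSeq start (build GRCm38.p6, 5′ to 3′) of 4 genes with such a match that were separated and lower. Capitals mark the CArG box in Egr2, Dusp5 (a pair of adjoining boxes) and Vcl, and the CRE letters TGACGTCA in Errfi1. Both strands were searched; Egr2 and Dusp5 were chosen after their values were seen.
Egr2: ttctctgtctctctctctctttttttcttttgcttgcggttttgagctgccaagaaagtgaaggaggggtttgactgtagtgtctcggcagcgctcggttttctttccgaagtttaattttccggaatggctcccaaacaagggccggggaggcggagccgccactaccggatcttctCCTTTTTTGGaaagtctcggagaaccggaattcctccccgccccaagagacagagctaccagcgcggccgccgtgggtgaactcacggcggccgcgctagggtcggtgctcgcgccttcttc
Dusp5: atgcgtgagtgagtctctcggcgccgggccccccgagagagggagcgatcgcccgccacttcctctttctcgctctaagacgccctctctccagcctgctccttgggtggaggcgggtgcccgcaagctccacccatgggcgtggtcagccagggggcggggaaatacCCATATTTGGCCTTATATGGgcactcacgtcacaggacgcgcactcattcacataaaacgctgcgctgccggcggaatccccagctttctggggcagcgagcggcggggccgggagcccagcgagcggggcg
Vcl: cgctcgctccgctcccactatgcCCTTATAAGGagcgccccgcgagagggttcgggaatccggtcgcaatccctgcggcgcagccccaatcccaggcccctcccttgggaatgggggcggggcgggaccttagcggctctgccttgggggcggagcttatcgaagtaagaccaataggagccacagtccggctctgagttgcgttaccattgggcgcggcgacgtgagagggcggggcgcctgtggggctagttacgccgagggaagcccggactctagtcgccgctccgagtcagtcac
Errfi1: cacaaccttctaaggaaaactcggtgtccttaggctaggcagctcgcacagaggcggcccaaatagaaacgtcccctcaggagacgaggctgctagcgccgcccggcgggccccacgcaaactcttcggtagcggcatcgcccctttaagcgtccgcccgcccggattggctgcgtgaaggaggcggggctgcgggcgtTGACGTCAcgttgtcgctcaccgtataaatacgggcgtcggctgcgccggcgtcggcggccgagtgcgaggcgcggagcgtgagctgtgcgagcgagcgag
The windows lie at chr10:67537316-67537615 for Egr2, chr19:53528895-53529194 for Dusp5, chr14:20929148-20929447 for Vcl and chr4:150854820-150855119 for Errfi1, all on the + strand. Egr2 has 5 such windows in the table and Errfi1 2, and one of each is shown. Over 27025 genes with a promoter in the table, 1.81% had a CArG box and 2.03% had the CRE letters in some window. Promoters were given for 52 of the 70 immediate early genes and 32 of the 42 genes of the SRF and YAP list, too few for the share of a list to be set against this.

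The 4 genes with printed promoters were these. Egr2, a zinc-finger factor of the early growth response family, had 2.74 and 2.505 CPM untreated and 0.493 and 0.881 CPM treated (log2 fold -1.41, SE 0.36). Dusp5, a nuclear phosphatase that inactivates ERK, had 3.89 and 3.52 CPM and 1.02 and 1.04 CPM (log2 fold -1.46, SE 0.37). Errfi1, a feedback inhibitor of the EGF receptor, had 9.46 and 9.89 CPM and 2.54 and 3.303 CPM (log2 fold -1.58, SE 0.36). Vcl, vinculin, which ties integrins to actin, had 45.8 and 46.98 CPM and 13.6 and 24.9 CPM (log2 fold -1.31, SE 0.35). Treated replicates lay close together for Dusp5 and Errfi1 and further apart for Egr2 and Vcl. The wild-type folds were 0.49, 0.63, -0.38 and 0.70 in that order. All 4 were printed because they were lower in both treated libraries, so that direction is no result about the motifs. Other listed genes with a match are not shown, and a link between motif and fold was not tested.

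By role, EGR genes had the lowest median among early genes, -0.85 over 5 genes with 3 separated and lower, against 28.4% of all genes. Feedback regulators of signalling were at -0.70 over 24 with 17 separated and lower, the IER, KLF and nuclear receptor genes at -0.33 over 29, and AP-1 genes at -0.23 over 9. Zfp36l2, an RNA-binding protein that speeds decay of AU-rich messages, had 10.8 and 11.5 CPM untreated and 1.97 and 4.62 CPM treated (log2 fold -1.71, SE 0.38). Ptgs2, the inducible cyclooxygenase, had 7.88 and 7.65 CPM and 1.44 and 2.89 CPM (log2 fold -1.69, SE 0.42). Npas4, a basic helix-loop-helix factor, had 23.01 and 17.1 CPM and 7.54 and 4.28 CPM (log2 fold -1.71, SE 0.42), and fell in wild type as well (-2.40).

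Targets of SRF and of YAP, a transcription factor and a cofactor that both answer to actin tension, had the lowest median of the lists in the plot by list. Of 42 tested, 27 (64.3%) were separated and lower and 1 (2.4%) separated and higher, against 28.4% and 25.3% of all genes. The median log2 fold was -0.65, or -0.69 with treated replicate 1 alone, and ran from -0.69 to -0.45 with 1 library left out. The 17 YAP targets had a median of -0.93 with 13 separated and lower, and the 25 SRF targets -0.46 with 14. Against the untreated mean, treated replicates 1 and 2 had medians of -1.096 and -0.625 for YAP targets and -0.394 and -0.451 for SRF targets. Wild-type cells were at -0.23 over the list, with 6 members passed as lower and 2 as higher, or 13 and 2 with the replicate block. Without the block 4.55% and 8.03% of all genes so passed. Ankrd1, a cofactor induced by YAP, had 572 and 778 CPM untreated and 301 and 348 CPM treated (log2 fold -1.04, SE 0.22), and Cyr61, a matricellular protein like Ctgf, 249 and 265 CPM and 120.0 and 151 CPM (log2 fold -0.93, SE 0.22). Both fell in wild type, by a log2 fold of -2.0 and -1.34, so the direction was shared between the genotypes for these genes. For Vcl the signs differed, and the difference missed the threshold (-2.01, SE 0.46, adjusted p = 0.052 by limma). The replicate block brought it to an adjusted p of 0.0289 by limma. That block also pairs the p53-null libraries by number, a pairing that the sex-linked RNA of those numbered 2 puts in doubt.

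Matrix genes were lower in part. The 55 collagens, matrix glycoproteins and enzymes of matrix turnover tested had a median of -0.42. Of them 26 (47.3%) were separated and lower and 11 (20%) separated and higher, against 28.4% and 25.3% of all genes. With library size alone as the scaling 5 (9.1%) were separated and higher, against 21.9% of all genes so scaled. The median was -0.58 with treated replicate 1 alone, -0.21 with treated replicate 2 alone and -0.27 without untreated replicate 2. The median was -0.54 for 13 collagens, -0.43 for 24 glycoproteins and -0.06 for 18 cross-linking and turnover genes. Fn1, fibronectin, had 713 and 680.3 CPM untreated and 267 and 463 CPM treated (log2 fold -0.98, SE 0.32), where wild type rose (0.99). Tnc, tenascin C, had 179 and 165 CPM and 76.001 and 105 CPM (log2 fold -0.94, SE 0.27). For both the difference between genotypes passed (-1.97, SE 0.42, adjusted p = 0.0425 by limma and -1.62, SE 0.35, adjusted p = 0.047 by limma). Col3a1, a chain of fibrillar collagen, had 153 and 149.8 CPM and 66.4 and 114 CPM (log2 fold -0.79, SE 0.29), and Postn, periostin, 89.9 and 88.4 CPM and 22.97 and 66.3 CPM (log2 fold -1.18, SE 0.48). Fibroblast markers, which share such genes, went with them: 10 of 14 were separated and lower at a median of -0.50, with summed levels of 5288 and 5581 CPM untreated and 4528 and 4608 treated. In bulk RNA, fewer cells of a type and less RNA per cell cannot be told apart, and their part was not tested.

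Genes of growth factor and TGF-beta signalling had a median of -0.38 over 34 tested. Of them 17 (50%) were separated and lower and 6 (17.6%) separated and higher, against 28.4% and 25.3% of all genes. With library size alone as the scaling 2 (5.9%) were separated and higher, against 21.9% of all genes so scaled. The median was -0.56 with treated replicate 1 alone and -0.20 with treated replicate 2 alone. Tgfb2, a ligand, had 10.5 and 10.5 CPM untreated and 3.75 and 6.01 CPM treated (log2 fold -1.06, SE 0.41), and Vegfa, the ligand of endothelial growth, 42.2 and 50.2 CPM and 20.6 and 33.2 CPM (log2 fold -0.80, SE 0.34). Of the receptors, Pdgfra had 3.89 and 4.13 CPM and 1.55 and 2.11 CPM (log2 fold -0.96, SE 0.30) and Igf1r 23.4 and 24.3 CPM and 15.7 and 13.1 CPM (log2 fold -0.71, SE 0.25). All 4 were lower in both treated libraries, and Pdgfra also fell in wild type (-0.84).

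**Figure D4:**
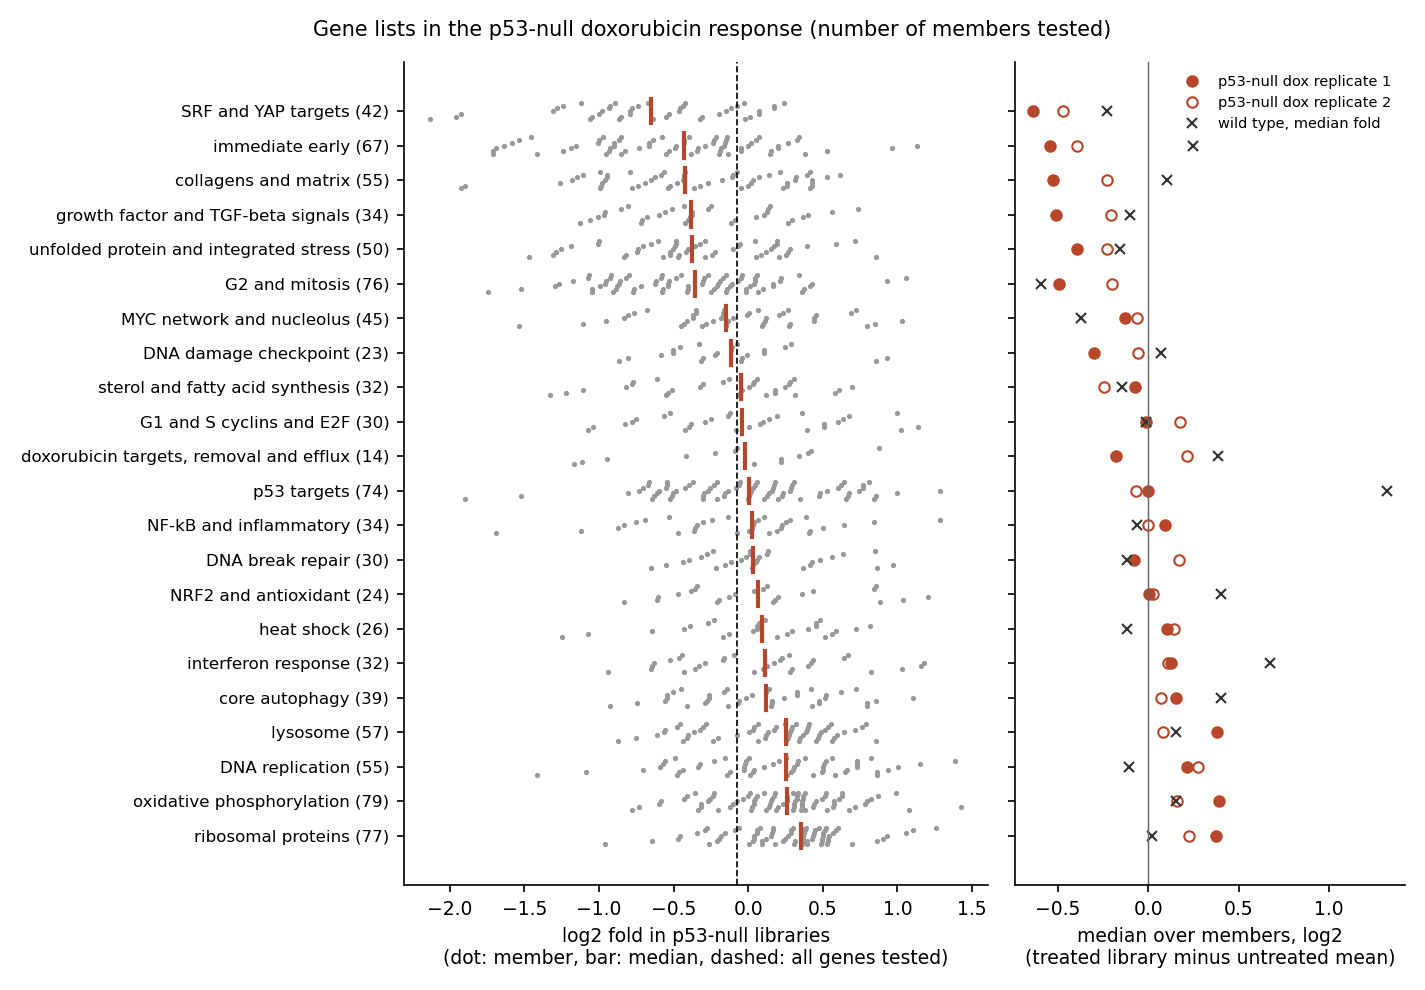
Left: log2 fold of doxorubicin over untreated in p53-null cells for each member (dots) of 22 gene lists, with the list median (bar), the median of all genes tested (dashed line) and the number of members tested. Right: median over members for each treated p53-null library against the untreated mean, with the scaling of all 10 libraries kept (filled and open circles), and the median wild-type fold (crosses). SRF and YAP targets, at -0.65, and ribosomal proteins, at 0.35, lie at the ends, and the p53 targets have a wild-type median of 1.32 beside 0.01 in p53-null cells.

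Cell cycle genes split by phase, as the plot of the lists shows. Among all genes 28.4% were separated and lower and 25.3% separated and higher. Genes of G2 and mitosis had a median of -0.36 over 76 tested, with 38 (50%) separated and lower and 5 (6.6%) separated and higher, and DNA replication genes a median of 0.25 over 55, with 22 (40%) separated and higher and 9 (16.4%) separated and lower. In wild type the medians were -0.59 and -0.11. Genes of G1 and S cyclins and E2F factors were at -0.04 over 30. With treated replicate 1 alone the 3 p53-null medians were -0.55, 0.17 and -0.06, and with treated replicate 2 alone -0.18, 0.29 and 0.19. Without untreated replicate 2 the median of G2 and mitosis was -0.16 and that of the G1 and S genes 0.01. In wild type 14 genes of G2 and mitosis passed as lower, against 4.55% of all genes, or 31 with the replicate block.

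Within G2 and mitosis the 27 genes of the spindle and kinesins were lowest, at -0.82. Of these 18 were separated and lower and 0 separated and higher, against 28.4% and 25.3% of all genes. The 21 kinetochore genes were at -0.40, the 13 entry genes at -0.31 and the 15 exit genes at -0.15. Against the untreated mean, treated replicates 1 and 2 had spindle medians of -1.21 and -0.42 and kinetochore medians of -0.55 and 0.02. Entry genes were at -0.28 and -0.35 and exit genes at -0.11 and 0.05, so the order of roles depended on the treated library. Ckap2 and the kinetochore scaffold Casc5, at 0.961 and 1.05 CPM untreated and 0.190 and 0.440 CPM treated (log2 fold -0.90, SE 0.27), were among them. Ccnf, a cyclin that is part of a ubiquitin ligase, had 21.6 and 22.9 CPM and 13.002 and 9.22 CPM (log2 fold -0.99, SE 0.29). Cdc2a, the mitotic kinase now called Cdk1, had 45.2 and 36.4 CPM and 14.2 and 25.4 CPM (log2 fold -1.07, SE 0.36). Pkmyt1, the kinase that holds it inactive, went the other way, with 47.4 and 52.96 CPM untreated and 108 and 85.4 CPM treated (log2 fold 0.93, SE 0.22), while Wee1, which shares that role, had 2.21 and 2.72 CPM and 1.02 and 1.38 CPM (log2 fold -0.80, SE 0.40).

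Among the replication genes, those of the fork had the higher median, 0.30 over 29 genes. Of these 13 were separated and higher and 3 separated and lower, against 25.3% and 28.4% of all genes. Rpa2, a subunit of the protein that coats single-stranded DNA, had 93.04 and 86.4 CPM untreated and 187 and 143 CPM treated (log2 fold 0.86, SE 0.24). Gins3, part of the replicative helicase, had 11.9 and 10.9 CPM and 25.4 and 21.4 CPM (log2 fold 1.00, SE 0.31). Dbf4, the activator of the kinase that fires origins, was lower instead, with 14.5 and 14.6 CPM and 3.83 and 6.83 CPM (log2 fold -1.42, SE 0.39). E2f2, an activating E2F factor, had 5.04 and 4.61 CPM and 12.6 and 10.003 CPM (log2 fold 1.14, SE 0.34), and Cdk4, the kinase of cyclin D, 76.8 and 161 CPM and 212 and 243 CPM (log2 fold 1.03, SE 0.44). For Cdk4 untreated replicate 1 was at less than 50% of untreated replicate 2.

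Genes of the damage response machinery had medians near that of all genes, and those medians moved with the treated library used. Of 23 checkpoint genes tested, 6 (26.1%) were separated and lower and 2 (8.7%) separated and higher, against 28.4% and 25.3% of all genes. With library size alone as the scaling 9 (39.1%) were lower, against 30.4% of all genes so scaled. The median was -0.12, or -0.35 with treated replicate 1 alone and -0.04 with treated replicate 2 alone, and -0.22 without untreated replicate 1. The higher ones were Pkmyt1 and Ppm1d, and Atrip, the partner of ATR, overlapped at 59.9 and 39.2 CPM and 44.99 and 25.7 CPM. Of 30 genes of double-strand break repair, 8 (26.7%) were separated and higher and 2 (6.7%) separated and lower, at a median of 0.03. In treated replicate 1 alone 10 (33.3%) were above and 14 (46.7%) below both untreated libraries, against 40% and 43% of all genes. The median was then -0.12. In treated replicate 2 alone 16 (53.3%) were above and 4 (13.3%) below, against 35.1% and 43.3% of all genes, at a median of 0.19. Without untreated replicate 1 the median was -0.05. Brip1, a helicase of homologous recombination, had 9.17 and 8.09 CPM untreated and 17.1 and 15.2 CPM treated (log2 fold 0.86, SE 0.28). Xrcc3, which acts in homologous recombination, had 11.8 and 10.1 CPM and 20.9 and 19.3 CPM (log2 fold 0.85, SE 0.32), and Xrcc5, the Ku80 subunit of end joining, 13.8 and 13.6 CPM and 20.5 and 22.6 CPM (log2 fold 0.63, SE 0.26). Rad54l, a DNA translocase of homologous recombination, had 2.31 and 4.17 CPM and 6.25 and 6.98 CPM (log2 fold 0.97, SE 0.44).

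Of the drug's own targets, the topoisomerase II genes differed. Top2b, the form of resting and dividing cells alike, had 7.93 and 7.603 CPM untreated and 2.58 and 3.9003 CPM treated (log2 fold -1.17, SE 0.36), with the groups apart. Top2a, the form of dividing cells, had 222 and 363 CPM and 304 and 425 CPM (log2 fold 0.34, SE 0.31) and overlapped, and it fell in wild type (-0.98). Top1 had 66.04 and 78.5 CPM and 58.5 and 79.6 CPM, and overlapped. Top3a and Top3b, of type I, were separated and higher at log2 folds of 0.42 (SE 0.30) and 0.40 (SE 0.25), and Top3b rose in wild type (0.85). The lesion-removing Tdp1 had a fold of -0.09 (SE 0.51) and Ttrap, the enzyme TDP2, 0.22 (SE 0.31).

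Of the transporters that export anthracyclines, those tested were lower or overlapped. Abcc1, encoding MRP1, had 54.6 and 42.7 CPM untreated and 13.6 and 35.5 CPM treated (log2 fold -1.11, SE 0.55), and Abcg2, encoding BCRP, 2.402 and 3.43 CPM and 0.986 and 1.57 CPM (log2 fold -0.94, SE 0.41). Both were separated and lower, Abcc1 mainly through replicate 1. Abcb1b, one of the mouse P-glycoprotein genes, overlapped at 3.84 and 4.31 CPM and 2.08 and 5.41 CPM, and Abcb1a had 0 and 0 reads untreated and 2 and 2 treated. Among reductases that act on the drug, Cbr1 had 14.7 and 17.3 CPM and 29.6 and 29.8 CPM (log2 fold 0.88, SE 0.31). Akr1a4 was lower in both treated libraries (log2 fold -0.41, SE 0.49), and Cbr3 (log2 fold 0.22, SE 0.58) and Por (log2 fold 0.04, SE 0.20) overlapped.

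Stress pathways other than p53 had different medians. Genes of the unfolded protein and integrated stress responses had a median of -0.38 over 50 tested. Of these 23 (46%) were separated and lower and 6 (12%) separated and higher, against 28.4% and 25.3% of all genes. Herpud1, a factor of degradation at the endoplasmic reticulum, had 5.38 and 4.26 CPM untreated and 1.44 and 1.38 CPM treated (log2 fold -1.47, SE 0.36), and Trib3, a pseudokinase induced by ATF4 and CHOP, 25.98 and 26.6 CPM and 11.5 and 11.01 CPM (log2 fold -1.19, SE 0.35). The amino acid transporters Slc7a5 and Slc7a1 had folds of -1.01 (SE 0.27) and -1.29 (SE 0.41). Trib3 also fell in wild type (-2.17), where 5 members passed as lower and 3 as higher, or 9 and 5 with the replicate block. Without the block 4.55% and 8.03% of all genes so passed. Heat shock genes were at 0.10 over 26, with 10 (38.5%) separated and higher and 6 (23.1%) separated and lower, and NRF2 targets at 0.07 over 24, with 8 (33.3%) and 4 (16.7%). For both lists the shares of all genes were 25.3% and 28.4%. The unfolded protein list was at -0.21 with treated replicate 2 alone. NRF2 targets were at -0.04 with treated replicate 1 alone and -0.006 without untreated replicate 1, and heat shock genes ran from 0.05 to 0.24 with 1 library left out. Bag3, a co-chaperone, had 32.6 and 33.004 CPM and 11.1 and 16.4 CPM (log2 fold -1.25, SE 0.29), and Gpx1, a glutathione peroxidase, 163 and 215 CPM and 346 and 331 CPM (log2 fold 0.85, SE 0.26).

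NF-kB and inflammatory genes had a median of 0.03 over 34 tested, with 12 (35.3%) separated and higher and 9 (26.5%) separated and lower, against 25.3% and 28.4% of all genes. With library size alone as the scaling those counts were 8 (23.5%) and 9 (26.5%), against 21.9% and 30.4% of all genes so scaled. Beside Icam1 and Ptgs2, the chemokine gene Cxcl12 had 26.3 and 27.1 CPM untreated and 10.9 and 13.2 CPM treated (log2 fold -1.12, SE 0.28), and Cxcl10 1.49 and 1.14 CPM and 0.341 and 0.723 CPM (log2 fold -0.83, SE 0.26). Interferon response genes were at 0.12 over 32, against 0.68 in wild type, with 13 (40.6%) separated and higher and 11 (34.4%) separated and lower. With library size alone as the scaling those were 9 (28.1%) and 12 (37.5%), against 21.9% and 30.4% of all genes so scaled. The factor Irf1 had 15.2 and 18.8 CPM and 34.7 and 42.5 CPM (log2 fold 1.16, SE 0.28) and Irf9, part of the factor that answers type I interferon, 5.24 and 5.45 CPM and 2.05 and 3.15 CPM (log2 fold -0.94, SE 0.39). Dhx58, a cytosolic RNA sensor, was higher (log2 fold 1.18, SE 0.50) and Gbp2, a guanylate-binding protein, lower (log2 fold -0.65, SE 0.35).

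In the MYC network the activator and several antagonists lay on opposite sides. Myc had 25.98 and 21.8 CPM untreated and 7.77 and 8.05 CPM treated (log2 fold -1.53, SE 0.42), and both treated libraries were at less than 50% of either untreated one. Of the 5 antagonists tested that pair with MAX in place of MYC, 3 were separated and higher, and Mxi1 and Mnt overlapped. Mxd1 had 1.68 and 2.29 CPM and 4.51 and 4.56 CPM (log2 fold 1.03, SE 0.37), Mxd3 50.9 and 52.1 CPM and 98.6 and 87.7 CPM (log2 fold 0.85, SE 0.21) and Mxd4 14.5 and 13.4 CPM and 22.3 and 27.3 CPM (log2 fold 0.80, SE 0.25). In wild type Mxd1 and Mxd4 rose (1.76 and 1.40) and Mxd3 did not pass (-0.32). The 37 nucleolar genes had a median of -0.15 without p53 and -0.54 in wild type, where 13 passed as lower and 1 as higher, or 19 and 2 with the replicate block. Without the block 4.55% and 8.03% of all genes so passed.

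Genes of the ribosome and of respiration had positive medians. Cytosolic ribosomal proteins had a median of 0.35 over 77 tested, with 48 (62.3%) separated and higher and 6 (7.8%) separated and lower, and summed levels of 183793 and 169549 CPM untreated and 233238 and 192396 treated. Subunits of oxidative phosphorylation had 0.26 over 79, with 30 (38%) and 9 (11.4%). For both lists the shares of all genes were 25.3% and 28.4%. Median folds over all genes at such levels were also above 0 (0.10 for those at a mean log2 level of 7 or more). Rps21 had 731 and 1057 CPM untreated and 1573 and 1778 CPM treated (log2 fold 0.93, SE 0.24), and Cox6b1, a subunit of cytochrome oxidase, 346 and 389.9 CPM and 599.6 and 577 CPM (log2 fold 0.68, SE 0.20). Rpl23a stood out on the other side, with 1787 and 1555 CPM and 889 and 828 CPM (log2 fold -0.96, SE 0.21), where wild type rose (1.08) and the difference passed (-2.04, SE 0.27, adjusted p = 0.00509 by limma). Ribosomal protein genes have many processed pseudogenes, and the sources used here do not say how reads shared with such copies were counted.

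Lysosomal genes had a median of 0.25 over 57 tested, with 20 (35.1%) separated and higher and 10 (17.5%) separated and lower, and core autophagy genes 0.12 over 39, with 13 (33.3%) and 8 (20.5%). For both lists the shares of all genes were 25.3% and 28.4%. With treated replicate 2 alone the lysosomal median was 0.10, and without untreated replicate 2 it was 0.15. The autophagy median was 0.24 with treated replicate 1 alone and 0.01 without untreated replicate 1. Psap, the precursor of the saposins, had 551 and 526 CPM untreated and 891 and 741 CPM treated (log2 fold 0.59, SE 0.22). D2Ertd391e, the gene of ATG13, had 16.8 and 17.6 CPM and 33.9 and 29.6 CPM (log2 fold 0.86, SE 0.22), and 9430023L20Rik, the gene of ATG101, 13.4 and 15.2 CPM and 34.6 and 28.5 CPM (log2 fold 1.11, SE 0.37). Both proteins sit in the ULK1 complex that starts autophagosome formation, and Atg16l1, which acts in elongation, had a log2 fold of 0.80 (SE 0.23). Sterol and fatty acid synthesis genes were at -0.05 over 32 (-0.23 to -0.01 with 1 library left out), with the desaturase genes Fads1 and Scd1 at log2 folds of -1.22 (SE 0.36) and -1.11 (SE 0.38).

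The test of the difference between the responses asked where the p53-null cells departed from wild type. It passed for 261 genes (2.34%), 50 with the higher fold in p53-null cells (0.447%) and 211 with the lower (1.89%). With library size alone the split was 21 and 213, and with upper quartile scaling 8 and 161. With the replicate block, which also pairs the p53-null libraries by number, 1076 genes passed. Among the 261 genes of the fit without a block, 27 were also separated with a p53-null fold of at least 2. Of these 27, 23 had opposite signs in the genotypes. An opposite sign adds to the difference by construction.

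Of the 27, 4 had the higher fold in p53-null cells. Nxt1, a cofactor of mRNA export, had 3.46 and 7.78 CPM untreated and 13.8 and 14.7 CPM treated without p53 (log2 fold 1.37, SE 0.50) and fell in wild type (-1.53), a difference of 2.89, SE 0.64, adjusted p = 0.049 by limma. Mrpl46, a mitochondrial ribosomal protein, had 20.8 and 23.995 CPM and 50.9 and 42.1 CPM, with a difference of 1.52, SE 0.29, adjusted p = 0.0291 by limma. Ftsj2, a methyltransferase of mitochondrial ribosomal RNA, had 8.89 and 9.405 CPM and 20.8 and 19.8 CPM, and Ankle1, an endonuclease, 12.6 and 12.9 CPM and 31.1 and 25.4 CPM, with differences of 1.73, SE 0.34, adjusted p = 0.0328 by limma and 1.67, SE 0.37, adjusted p = 0.049 by limma. Separated p53-null libraries were a condition of the choice, so their lack of overlap in these 4 is no result. The wild-type fold was below 0 in all 4.

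The other 23 had the lower fold in p53-null cells. Pja2 had 28.8 and 17.7 CPM untreated and 3.56 and 5.03 CPM treated (log2 fold -2.28, SE 0.36) with a wild-type fold of 0.13, so most of its difference (-2.41, SE 0.46, adjusted p = 0.0291 by limma) came from the p53-null fold. Zmiz1, a co-activator that binds SMADs and p53, had 13.3 and 11.3 CPM and 2.24 and 3.59 CPM (log2 fold -1.93, SE 0.41), with a difference of -2.96, SE 0.54, adjusted p = 0.0231 by limma. Zfpm1, the GATA cofactor FOG1, had 54.5 and 43.6 CPM and 25.7 and 19.1 CPM (log2 fold -1.12, SE 0.28) and rose in wild type (1.29), as did Wasl, the actin nucleation factor N-WASP, with 5.09 and 5.05 CPM and 1.55 and 1.64 CPM (log2 fold -1.41, SE 0.38) and a wild-type fold of 1.14. Cited4, Fam43b, Arhgef4 and Ckap2 had their larger fold in wild type, with p53-null folds of 1.72, -1.29, 1.11 and -1.52 beside 6.09, 3.57, 3.46 and 2.10.

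**Figure D5:**
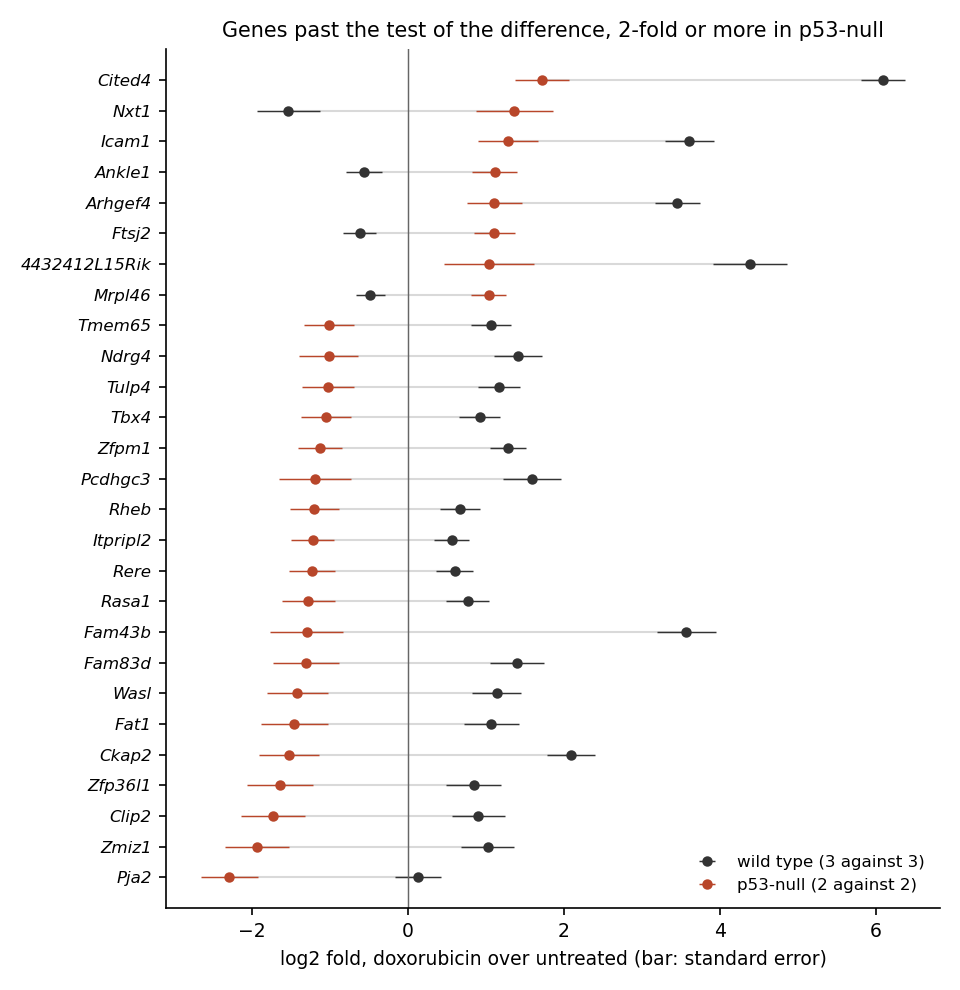
Log2 fold of doxorubicin over untreated (horizontal axis, bar: standard error) in wild-type (black) and p53-null cells (red) for the 27 genes that passed the test of the difference and were separated with at least a 2-fold change in p53-null cells, ordered by the p53-null fold. In 23 of the 27 the dots lie on opposite sides of 0, and Cited4 has the largest wild-type fold, 6.09.

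These counts rest heavily on single libraries of both genotypes. Leaving out 1 wild-type library gave 99 to 305 genes, with 99 and 101 without untreated wild-type replicates 2 and 3. Without one p53-null library the difference passed for 38 to 86 genes: 38 without untreated replicate 1, 51 without untreated replicate 2, 70 without treated replicate 1 and 86 without treated replicate 2, of which 81 were among the 261. Without treated replicate 2 the p53-null response itself gave 1 gene, Thbs1 (limma log2 fold -2.61, SE 0.24, adjusted p = 0.0325); the lone treated library is there assumed to vary like the other groups.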

How the data were processed

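RNA was read near the 3′ end of polyadenylated transcripts, per the labels' protocols. The authors deposited, for each of 20207 genes and each library, a value on a log2-like scale (-0.0425 to 24.43), made with DESeq on build mm9 per the submitters' processing notes; those sources do not name versions, an aligner, an annotation or the strand. All 10 libraries lie on one curve of value against reads, and whole reads were recovered by walking along it: 99.57% of 22112 distinct values above 250 reads came within 0.01 of a whole read, and the 95 others are at 54512 reads or more. Because the deposited values are not counts, no count model was used.

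Reads were scaled by the trimmed mean of M-values (TMM), the 11177 genes that reached 1 CPM in 2 or more of the 10 libraries were kept, and log2(CPM + 0.5) was fitted with limma 3.58.1 (trend option, R 4.3.3) with 1 mean per group over all 10 libraries. P-values were two-sided and adjusted by Benjamini and Hochberg over all genes, with 0.05 as the threshold. Because 0.5 CPM is added, the change of a low gene is understated. The difference of responses is p53-null minus wild type. The scripts were tested on simulated data.

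Gene lists, the marker lists and all members were chosen with earlier results of these data known, so no list is tested; 12 listed genes were matched through a RefSeq synonym and 4 were not matched. Genes are named by rule: Trp53, Cdkn1a, Mdm2, Ccng1, Bbc3, Bax and Pmaip1; the 15 highest and 15 lowest p53-null folds among separated genes with a mean log2 level of 3 or more; up to 4 members of each list with the smallest p; up to 8 genes each way among those past the difference test with a separated log2 fold of at least 1; and all members of the p53 family, doxorubicin target and sex marker lists. Some genes that the rule names are not reported here. Promoters are RefSeq's, on build GRCm38.p6. The p53 binding data were not used here. Alternatives were other scalings, added CPM, filters, tools, a replicate block and libraries left out.

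Replicate numbers are shared by the treated and untreated groups. Deviations of same-numbered wild-type libraries correlated at 0.581, 0.342 and 0.611, so the numbers were taken as pairs there; the fit reported has no block, and blocked counts are given beside it where they differ by over 1.5 times. In p53-null cells the one correlation of 2 pairs was 0.385, the labels do not say what a number marks, and the libraries numbered 2 differ in sex-linked RNA. In the fit reported those numbers were therefore not taken as pairs. The replicate block was nevertheless built from the numbers of both genotypes. Blocked values of the difference of responses and of the p53-null response thus rest on that doubtful pairing too.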

Additional observations from a re-analysis of the deposited data

Results flagged for a closer look

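The response to doxorubicin differed between p53-null and wild-type cells by the test of the difference itself (limma, adjusted p under 0.05) for 261 genes. Differences are p53-null minus wild type, on the log2 scale. Among the genes named throughout, those with the lower response in p53-null cells were the p53 targets Cdkn1a (-2.05), Mdm2 (-2.67), Ccng1 (-3.30), Bbc3 (-2.96), Pmaip1 (-2.85), Ckap2 (-3.62) and Icam1 (-2.32), and the matrix genes Tnc (-1.62) and Fn1 (-1.97). The same sign was found for Pja2 (-2.41), Clip2 (-2.63), Zfp36l1 (-2.48), Rpl23a (-2.04), Cited4 (-4.36), Fam43b (-4.87), Zfpm1 (-2.41), Zmiz1 (-2.96), Arhgef4 (-2.34) and Wasl (-2.55). The response was higher in p53-null cells for Nxt1 (2.89), Mrpl46 (1.52), Ftsj2 (1.73) and Ankle1 (1.67).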

How the results depend on the processing

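No gene passed in the p53-null response under any other scaling, amount of added CPM, limma-voom, robust variance, the p53-null libraries alone or the replicate block. With no filter on low levels 2 genes passed, Wnt1 and Zic5, both lower and both with fewer than 10 reads in every p53-null library, and leaving out 1 library gave 0 to 1. The difference of responses gave 169 genes with upper quartile scaling, 1076 with the replicate block, 38 to 305 with 1 library left out and 0 without both p53-null libraries numbered 1, or both numbered 2, where each p53-null group is 1 library assumed to vary like the others. The wild-type response gave 784 genes from wild-type libraries alone, 2600 with the replicate block, 712 to 1458 with 1 library left out, and 773 and 778 without both p53-null libraries numbered 1 or 2. The causes were not tested. Of 30 lists, 17 had a median of one sign under all alternatives; those that changed sign included p53 targets (-0.07 to 0.07), NF-kB genes (-0.07 to 0.14), break repair (-0.12 to 0.19) and interferon genes (-0.09 to 0.23).

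Small p53-null folds changed sign with 1 library left out, over -0.007 to 0.307 for Mdm2, -0.40 to 0.10 for Ccng1, -0.46 to 0.29 for Bax, -0.021 to 0.109 for Pmaip1, -0.13 to 0.91 for Kdr, -1.02 to 0.13 for Krt18, -0.16 to 0.67 for Myf5, -0.39 to 0.047 for Tnnt1, -0.35 to 0.16 for Top1, -0.021 to 0.688 for Top2a, -0.43 to 0.22 for Tdp1, -0.87 to 0.39 for Abcb1b, -0.094 to 0.525 for Cbr3 and -0.066 to 0.127 for Por; the wild-type fold of Pja2 ran from -0.022 to 0.305. Without both p53-null libraries numbered 2, Ccng1 was 0.007, Pmaip1 -0.04 and Myf5 -0.035, and without both numbered 1, Bax was 0.144, Top1 0.001, Abcb1b 0.282 and Por -0.105. Por was -0.027 with library size alone and -0.015 with upper quartile scaling.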
